A study of Homo sapiens with 14 samples.

Results

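The actins and tubulins examined here are 10 of the 58434 gene symbols in the deposited read count table, chosen by name from the proteins that build actin filaments and microtubules. They are the cytoplasmic actins ACTB and ACTG1, the alpha-actinins ACTN1 and ACTN4, the alpha-tubulins TUBA1A, TUBA1B and TUBA1C, and the beta-tubulins TUBB, TUBB4B and TUBB6. All 10 passed the filter on low counts in every comparison.

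Actin monomers assemble into the filaments that shape the cell cortex and drive migration, and alpha-actinins join actin filaments into bundles and tie them to adhesion sites. Alpha- and beta-tubulin pair as the building block of microtubules. Cells adjust tubulin synthesis by cotranslational decay: when free tubulin is in excess, TTC5 recognizes the amino-terminal end of nascent tubulin on the ribosome and, through SCAPER, brings the CCR4-NOT deadenylase to the mRNA being translated. Actin genes are controlled in another way, by transcription through SRF and its MRTF partners, which sense actin monomers.

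The cells were MDA-MB-231, a triple negative breast cancer cell line in long use. Stable lines carried a doxycycline-inducible lentiviral shRNA, either non-silencing (shNSi) or against DAP5 (shDAP5), a relative of the initiation factor eIF4G that is encoded by EIF4G2. The lines were selected with puromycin and sorted for the red fluorescent protein that the vector makes with the shRNA, and all cultures of both lines received doxycycline at 1 µg/ml for 6 days, so the inducer is shared by both groups. Each line had 2 cultures, and each culture gave a total mRNA library and libraries from sucrose gradient fractions: light polysomes (2 to 3 ribosomes) and heavy polysomes (4 or more), with a moderate pool from the shNSi cultures alone. This gives 14 libraries, 8 of shNSi and 6 of shDAP5. Each shRNA stands for 1 stable line, and the study describes its data as coming from 2 complete and independent sets of experiments. The labels number the cultures without saying whether a number marks a set.

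Several features of the libraries bear on the values. The shDAP5 light libraries are titled light but carry the code that the shNSi cultures use for their moderate pool, and the shDAP5 total libraries are titled as total polysome but carry the code of total mRNA. Both were used as light and as total mRNA. Light polysomes and light translation efficiency were repeated against the shNSi moderate pool. The comparisons of heavy with light polysomes were not, so the effect of the conflicting labels on them was not tested. The 2 shNSi cultures also differed along the gradient. Library totals ranged from 25899838 to 30795910 counts. EIF4G2 was at 1391 and 1358 CPM in shNSi total mRNA and at 525.3 and 730 CPM in shDAP5 total mRNA, a log2 change of -1.11 (SE 0.18, adjusted p = 0.0172, edgeR quasi-likelihood test). Of the cell line's markers, VIM (797 to 14740 CPM), CD44 (105 to 1500 CPM) and SPARC (55.97 to 481.6 CPM) were present in all 14 libraries, while of 4 genes low or absent in this line PGR had no count in any, ESR1 and CDH1 were at most at 0.606 and 0.249 CPM, and EPCAM was at 2.91 to 6.11 CPM. The amount of RNA in each fraction was not measured, so every level is a share of its own library.

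The coding starts of the tubulin mRNAs are shown first, since the amino-terminal end they encode is what cotranslational decay reads, with the actins beside them as mRNAs outside that control. The first 30 coding bases of the principal transcript of each gene (GENCODE v29) are written 5′ to 3′, with the first 4 codons in capitals.
TUBA1A: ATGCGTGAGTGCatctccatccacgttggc
TUBA1B: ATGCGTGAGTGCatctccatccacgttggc
TUBA1C: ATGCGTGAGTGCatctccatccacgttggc
TUBB: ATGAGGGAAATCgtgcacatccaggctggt
TUBB4B: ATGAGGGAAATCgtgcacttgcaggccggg
TUBB6: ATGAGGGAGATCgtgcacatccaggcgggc
ACTB: ATGGATGATGATatcgccgcgctcgtcgtc
ACTG1: ATGGAAGAAGAGatcgccgcgctggtcatt
The 3 alpha-tubulins shared 1 sequence over all 30 bases. The 3 beta-tubulins had 2 different sequences over the capitals and 3 over the 30 bases.

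This likeness runs through the coding sequences and limits how reads can be told apart. TUBA1A and TUBA1B were identical at 97.2% of aligned coding bases, TUBA1B and TUBA1C at 96.8%, and TUBA1A and TUBA1C at 95.9%. ACTB and ACTG1 were identical at 91.3%, the beta-tubulins at 80.9% to 84.4%, and ACTN1 and ACTN4 at 80.7%. Of the 50-base windows along each principal transcript, 62.7% of those of TUBA1B, 41.7% of TUBA1A and 25.1% of TUBA1C also occurred in a transcript of another gene, against 18.2% of TUBB, 10.3% of ACTB, 9.89% of TUBB4B, 4.03% of ACTG1, 2.58% of ACTN4, 0.993% of TUBB6 and 0.912% of ACTN1. The window length was chosen here, as the read length is not given in the sources used here. Values of the 3 alpha-tubulins are therefore uncertain as single genes, and their sum is given for total mRNA, heavy and light polysomes and the heavy over total ratio.

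In the GRCh38 annotation, which differs from the hg19 build named in the submitters' processing notes and was matched by symbol, the alpha-tubulin genes lie together on chromosome 12. TUBA1B is at chr12:49127782-49131397 and TUBA1A at chr12:49184796-49189324, both on the minus strand, and TUBA1C is at chr12:49188736-49274603 on the plus strand. TUBA1A and TUBA1C overlap by 589 bases on opposite strands, and whether the counting used strand is not given in the sources used here, so reads from the overlap cannot be assigned to either. The others lie on separate chromosomes. ACTB is at chr7:5527147-5563784 (minus), ACTG1 at chr17:81509971-81523847 (minus), ACTN1 at chr14:68874143-68979440 (minus) and ACTN4 at chr19:38647649-38731583 (plus). Of the beta-tubulins, TUBB is at chr6:30720201-30725426, TUBB4B at chr9:137241213-137243707 and TUBB6 at chr18:12307669-12344320, all on the plus strand.

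The 10 genes together took 2.26% and 2.41% of all counts in shNSi total mRNA and 2.17% and 2.22% in shDAP5 total mRNA. Levels between genes were compared in total mRNA as CPM per kb of the principal transcript. In shNSi cultures ACTB (mean 3151) and ACTG1 (mean 2492) were highest, followed by TUBA1B (1545), TUBB (1412), TUBB4B (738.2), TUBA1C (467.7), ACTN1 (247.8), ACTN4 (200.4), TUBB6 (180.3) and TUBA1A (39.6). The order was the same in shDAP5 cultures, from ACTB at 3191 to TUBA1A at 62.8. In shNSi the neighbours TUBA1B and TUBB, ACTN1 and ACTN4, and ACTN4 and TUBB6 had overlapping values over the 2 cultures, and in shDAP5 the last 2 of these pairs did. ACTN4 and TUBB6 stood above ACTN1, and TUBB stood above TUBA1B when all annotated exons were used as the length, so these orders depend on the gene model.

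Total mRNA of the 10 genes was compared between the lines first, since a change there would carry over into every fraction. ACTB, the actin used as a reference in many assays, was at 5706 and 6400 CPM in shNSi and at 6209 and 6051 CPM in shDAP5. The shDAP5 values lay inside the shNSi range (log2 change 0.05, SE 0.15). ACTG1 was at 4470 and 5552 CPM in shNSi and 4153 and 4095 CPM in shDAP5, with both shDAP5 cultures below both shNSi cultures (log2 change -0.25, SE 0.16). With ACTG1, 5 of the 10 members were placed so (ACTN1, TUBA1B, TUBA1C and TUBB6 as well), as were 22% of 16235 genes. The reverse placing held for 0 members and 19.8% of genes. ACTN1 gave the lowest log2 change of the 10, -0.45 (SE 0.19), with 1054 and 819.2 CPM in shNSi and 580.3 and 772.8 CPM in shDAP5.
TUBA1A gave the highest, 0.69 (SE 0.39). It was at 96.1 and 53.4 CPM in shNSi and at 151.8 and 85.2 CPM in shDAP5, and the groups overlapped. The first culture of each line was the higher one for TUBA1A in total mRNA, in heavy polysomes and, for shDAP5, in light polysomes. The 3 alpha-tubulins summed were at 3729 and 4256 CPM in shNSi and 3463 and 3573 CPM in shDAP5. The other tubulins lay between -0.33 for TUBA1C and TUBB6 and 0.02 for TUBB4B.
No member passed an adjusted p of 0.05 in total mRNA (adjusted p from 0.35 for ACTN1 to 0.982 for TUBB4B), where 0.0867% of the genes tested were called higher and 0.267% lower. The median log2 change was -0.21 over the members and 0.01 over all genes tested. TUBA1A was called higher with no filter on low counts (adjusted p = 0.0365) and when the replicate number was fitted as a block (adjusted p = 0.0475). Leaving out 1 culture moved its change from 0.20 without shDAP5 culture 1 to 1.16 without shNSi culture 1 (adjusted p = 1 and 0.0744). It is the member with the fewest counts and shares many windows with its paralogs.

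**Figure D1:**
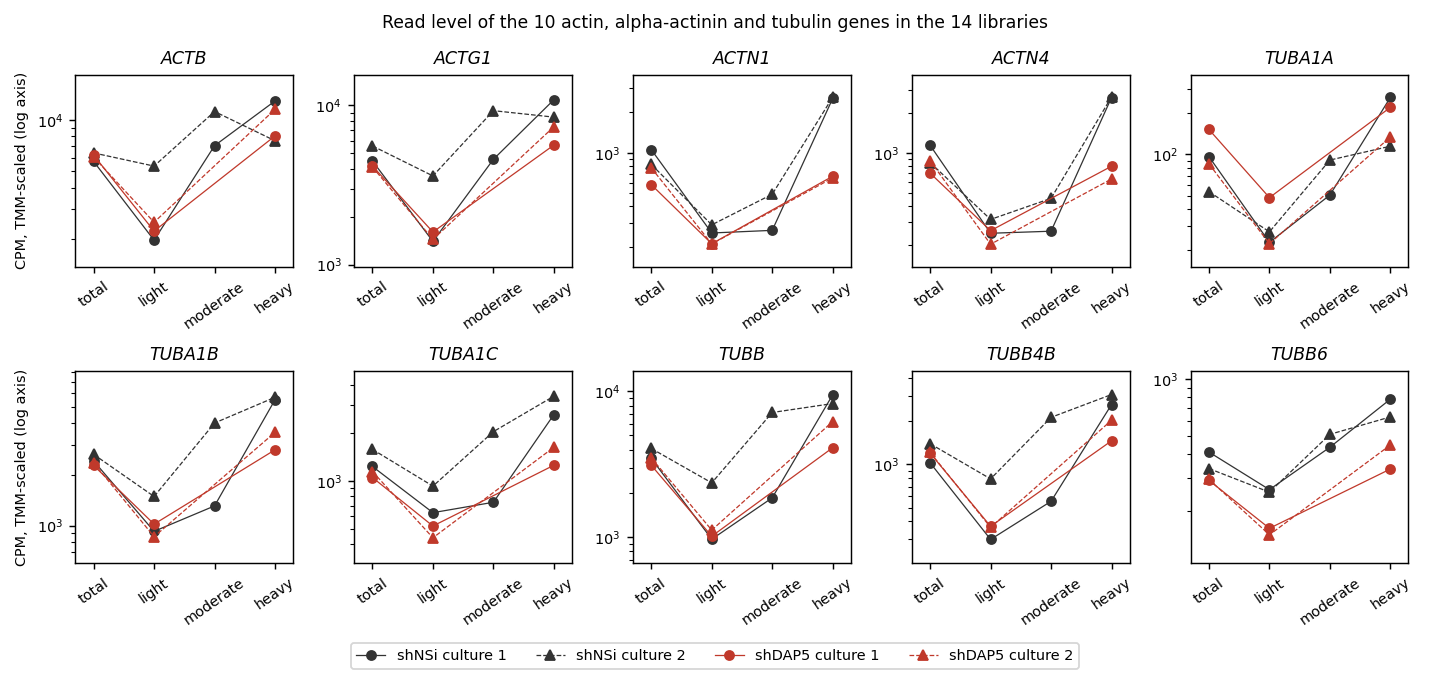
TMM-scaled CPM (log axis, a separate range for each gene) of each of the 10 genes in total mRNA, light, moderate and heavy polysomes, with shNSi in black and shDAP5 in red, circles for culture 1 and triangles for culture 2. Every gene was lowest in light polysomes in all 4 cultures, and ACTN1 and ACTN4 in heavy polysomes were at 2522 to 2661 CPM in shNSi and at 793.8 CPM or less in shDAP5.

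Along the gradient, the 10 mRNAs were higher in heavy than in light polysomes in both lines. In shNSi, 10 of 10 passed in that direction by the edgeR quasi-likelihood test with a term for each culture, where 29.8% of genes tested were called higher and 32.2% lower. The log2 difference ran from 1.25 (SE 0.41, adjusted p = 0.00797) for TUBB6 to 3.04 (SE 0.46, adjusted p = 8.28e-07) for ACTN4, with a median of 2.19 over the members and -0.13 over all genes. In shDAP5, 10 of 10 were likewise higher, where 24.8% of genes were called higher and 25.1% lower. There the log2 difference ran from 1.28 (SE 0.28) for TUBB6 to 2.35 (SE 0.27) for TUBA1A, with a median of 1.85 over the members and -0.03 over all genes. The actins differed by 1.98 (ACTB) and 2.04 (ACTG1) in shDAP5 and by 1.39 and 1.88 in shNSi. In shNSi the ACTB call was lost without the culture term (adjusted p = 0.0531), by library size (0.105) and by limma (0.552). The TUBB6 call was lost by library size (0.058) and the ACTG1 call by limma (0.0521). Library size scaling without TMM lowered the median of all genes from -0.13 to -0.49 in shNSi and from -0.03 to -0.22 in shDAP5, and the share of calls that were higher from 48% to 35.7% and from 49.7% to 37.1%.

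The 2 shNSi cultures did not place these mRNAs alike. In culture 1 the median log2 ratio of light polysomes over total mRNA was -1.72 over the members, and in culture 2 it was -0.80. For moderate polysomes over total the medians were -0.88 and 0.61. ACTB was at 1974 CPM in light, 7055 in moderate and 12890 in heavy polysomes of shNSi culture 1, and at 5359, 11180 and 7541 CPM in those of culture 2. It was thus highest in heavy polysomes in the first culture and in the moderate pool in the second, as was ACTG1, while the other 8 genes were highest in heavy polysomes in both. TUBB was at 971.1 CPM in light, 1866 in moderate and 9490 in heavy polysomes of culture 1, and at 2363, 7175 and 8262 CPM in culture 2. In shDAP5 the median of light over total was -1.45 and -1.58, closer to each other and to shNSi culture 1.
The alpha-actinins were low in the moderate pool and high in heavy polysomes. ACTN1 was at 266.3 and 493 CPM there against 254.6 and 292.6 CPM in shNSi light polysomes, and then at 2522 and 2576 CPM in heavy polysomes. ACTN4 was at 255.5 and 453.2 CPM in the moderate pool, 246.5 and 313.8 CPM in light and 2633 and 2661 CPM in heavy polysomes. Their log2 ratio of heavy over moderate was 3.24 and 2.39 for ACTN1 and 3.37 and 2.55 for ACTN4 in shNSi cultures 1 and 2. For the tubulins it ran from 0.85 (TUBB6) to 2.37 (TUBA1A) in culture 1 and from 0.20 (TUBB) to 0.74 (TUBA1C) in culture 2, and for ACTB it was 0.87 and -0.57. The highest tubulin values of culture 1 thus came near those of the alpha-actinins in culture 2, and the difference between the families was not tested.

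Heavy polysome mRNA was then compared between shDAP5 and shNSi, the comparison of well-translated mRNA. ACTN1 and ACTN4 fell, and the other 8 members did not pass the test. ACTN1 was at 2522 and 2576 CPM in shNSi and at 670 and 651.2 CPM in shDAP5, 3.39-fold lower (log2 change -1.76, SE 0.39, adjusted p = 0.000181). ACTN4 was at 2633 and 2661 CPM in shNSi and at 793.8 and 635.3 CPM in shDAP5, 3.26-fold lower (log2 change -1.71, SE 0.39, adjusted p = 0.000293). For both genes the 2 cultures of each line lay close together and the groups did not overlap. Among all genes tested 14.2% were called higher and 16.7% lower, and the 2 of 10 members called lower are near that share.
ACTB was at 12890 and 7541 CPM in shNSi and at 8046 and 11510 CPM in shDAP5, with overlapping groups (log2 change 0.12, SE 0.40). ACTG1 was at 10820 and 8421 CPM in shNSi and at 5622 and 7325 CPM in shDAP5 (log2 change -0.39, SE 0.39). Of the tubulins, TUBA1C gave the lowest log2 change, -0.87 (SE 0.38, adjusted p = 0.0699), with 2602 and 3395 CPM in shNSi and 1253 and 1624 CPM in shDAP5. It was called lower with DESeq2 (adjusted p = 0.0165) and without shNSi culture 1 (adjusted p = 0.0453), and TUBB6 was with all 14 libraries in 1 fit (adjusted p = 0.0341). TUBB was at 9490 and 8262 CPM in shNSi and at 4115 and 6220 CPM in shDAP5 (log2 change -0.59, SE 0.39), and TUBA1B at 5503 and 5692 CPM against 2794 and 3540 CPM (-0.63, SE 0.39). These are the main beta- and alpha-tubulin of the set. TUBB4B was at 2607 and 3064 CPM in shNSi and 1458 and 2029 CPM in shDAP5 (-0.51, SE 0.38), and TUBB6 at 782.1 and 629.5 CPM against 332.8 and 446.5 CPM (-0.67, SE 0.37). TUBA1A was at 260.2 and 114.6 CPM in shNSi and 220.2 and 133.8 CPM in shDAP5 (0.09, SE 0.35), with overlapping groups. The 5 tubulins other than TUBA1A had both shDAP5 cultures below both shNSi cultures, as did 8 of the 10 members and 34.2% of 16235 genes. The 3 alpha-tubulins summed were at 8366 and 9201 CPM in shNSi and 4268 and 5297 CPM in shDAP5. The median over the members was -0.61, against 0.09 over all genes. With limma on quantile normalized values ACTG1 was at 0.50 and TUBB at 0.23, on the other side of 0, and ACTB was called higher (0.91, adjusted p = 0.0498).
The alpha-actinin values depended on the control fraction. Both genes were far lower in the shNSi moderate pool than in shNSi heavy polysomes, so setting shDAP5 heavy polysomes against that pool compares unlike fractions. Against the shNSi moderate pool the log2 change was 0.81 for ACTN1 and 1.03 for ACTN4. Against heavy and moderate counts summed it was -0.89 and -0.81. No member was called in either, where 0.344% and 2.77% of all genes were. Without shDAP5 culture 2 the values were -1.77 and -1.58 (adjusted p = 0.0993 and 0.105), in a fit where 2 genes of the whole table were called. Library size scaling raised the median of all genes from 0.09 to 0.34 and the share of calls that were higher from 45.9% to 68.7%, and both alpha-actinins were still called lower. The cell line markers VIM (-1.35), CD44 (-1.94) and SPARC (-1.14) were called lower in heavy polysomes as well, 3 of 3. In total mRNA they gave -0.34, -1.14 and -0.50 (adjusted p = 0.0584 for CD44), and none was called. Their part in the result was not tested.

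**Figure D2:**
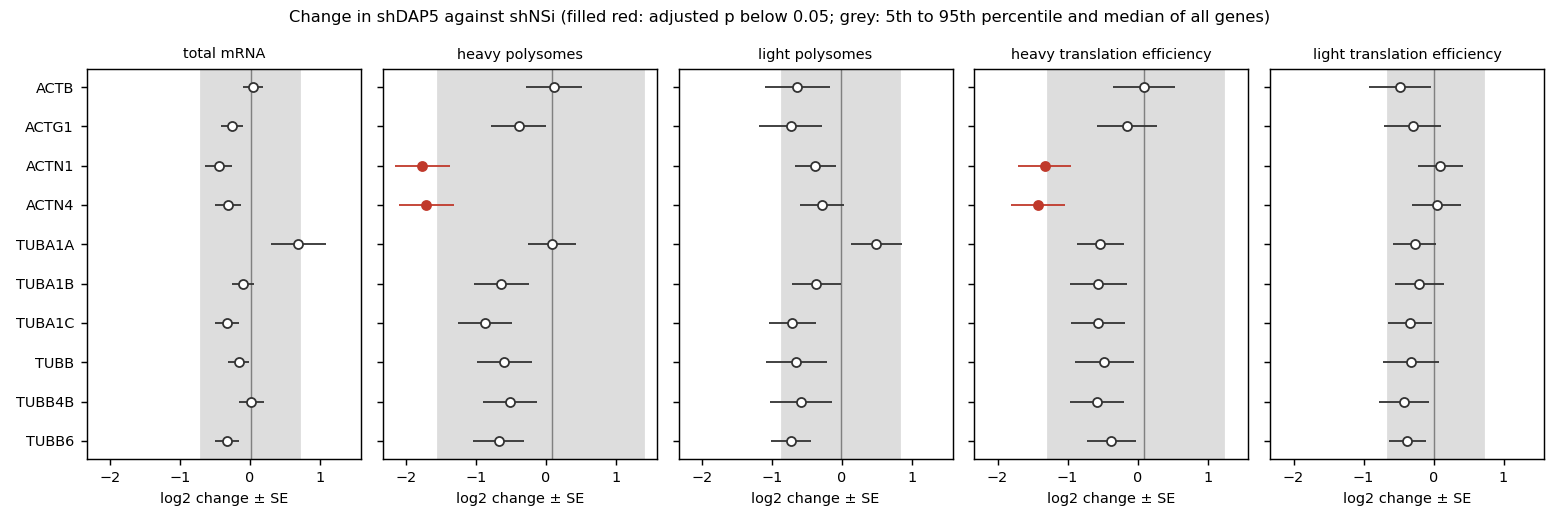
Log2 change in shDAP5 against shNSi with its standard error for each of the 10 genes in total mRNA, heavy polysomes, light polysomes, heavy translation efficiency and light translation efficiency (x axes shared). Filled red points have an adjusted p under 0.05, the grey band spans the 5th to 95th percentile of all genes tested and the grey line is their median; ACTN1 and ACTN4 are the only filled points, in the heavy panels.

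Translation efficiency was taken as polysome over total mRNA and tested as the interaction of fraction and shRNA, with a term for each culture. For heavy polysomes ACTN1 and ACTN4 fell and no other member passed the test. The log2 ratio of heavy over total of ACTN1 was 1.26 and 1.65 in the shNSi cultures and 0.21 and -0.25 in the shDAP5 cultures. That of ACTN4 was 1.20 and 1.65 in shNSi and 0.17 and -0.46 in shDAP5. The change in efficiency was -1.33 on the log2 scale for ACTN1 (SE 0.38, adjusted p = 0.0202) and -1.42 for ACTN4 (SE 0.39, adjusted p = 0.0154), 2.51-fold and 2.68-fold lower. Among all genes tested 4.85% were called higher and 8.23% lower.
The 6 tubulins gave similar values that did not pass the test, from -0.58 (SE 0.39) for TUBB4B to -0.37 (SE 0.35) for TUBB6, with adjusted p from 0.287 for TUBA1A to 0.507 for TUBB6, though limma put TUBB at 0.23 and TUBA1B at 0.04. With the shNSi moderate pool in place of heavy all 6 were above 0, from 0.04 for TUBB6 to 0.66 for TUBA1A, and with heavy and moderate summed 5 of 6 were, TUBB6 being at -0.06 and the median over the members at 0.02. TUBB had heavy over total ratios of 1.45 and 1.02 in shNSi and 0.40 and 0.83 in shDAP5, a log2 change of -0.48 (SE 0.42). TUBA1A, whose total mRNA was numerically higher in shDAP5, had ratios of 1.44 and 1.10 in shNSi and 0.54 and 0.65 in shDAP5 (log2 change -0.53, SE 0.33). The 3 alpha-tubulins summed had ratios of 1.17 and 1.11 in shNSi and 0.30 and 0.57 in shDAP5. Of these, TUBA1B and TUBA1C had narrow shNSi ratios, 1.20 and 1.12 for TUBA1B and 1.08 and 1.11 for TUBA1C, against 0.31 and 0.60 and 0.26 and 0.50 in shDAP5. TUBB6 had the lowest shNSi ratios of the tubulins, 0.93 and 0.91, against 0.20 and 0.61 in shDAP5, and TUBB4B had 1.35 and 1.14 against 0.29 and 0.74. For each tubulin the shDAP5 ratios were above 0, so these mRNAs were still a larger share of heavy polysomes than of total mRNA. The actins had the values nearest 0. ACTB had ratios of 1.18 and 0.24 in shNSi and 0.37 and 0.93 in shDAP5 (0.09, SE 0.44), and ACTG1 had 1.28 and 0.60 in shNSi and 0.44 and 0.84 in shDAP5 (-0.15, SE 0.43, but 0.06 by library size and 0.50 by limma).
In all, 8 of the 10 members, every one but the actins, had both shDAP5 ratios below both shNSi ratios, as did 32.6% of the 16235 genes with a ratio. The median change was -0.55 over the members and 0.09 over all genes. A 2 against 2 comparison cannot reach an exact two-sided permutation p under 0.333, so calls for single genes rest on the spread shared across genes.
The alpha-actinin call in efficiency was not held by every setting. It was lost with library size scaling (adjusted p = 0.078 and 0.0761 for ACTN1 and ACTN4, with the median of all genes raised from 0.09 to 0.30), with limma on quantile normalized values (0.059 and 0.0616), when replicate numbers were fitted as a block (0.101 and 0.0822, with 688 genes called in place of 2012), without the culture terms (0.116 for both), with heavy and moderate summed (-0.34 and -0.41, adjusted p = 1 for both), and without shNSi culture 1 (0.0756 and 0.0535), shNSi culture 2 (0.584 for both) or shDAP5 culture 2 (0.123 for both). With the shNSi moderate pool in place of heavy the changes were 1.32 and 1.37 (adjusted p = 1 for both). By library size, without the culture terms and with either other control fraction, 0 genes of the whole table were called, and with limma 408 were. In the settings with 0 the loss thus held for every gene and was not particular to ACTN1 and ACTN4. With 1 culture left out the change ran from -1.56 to -1.13 for ACTN1 and from -1.71 to -1.14 for ACTN4, near the full fit in size. The share of calls that were higher was 37.1%, against 27% with DESeq2 and 59.1% with limma.

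**Figure D3:**
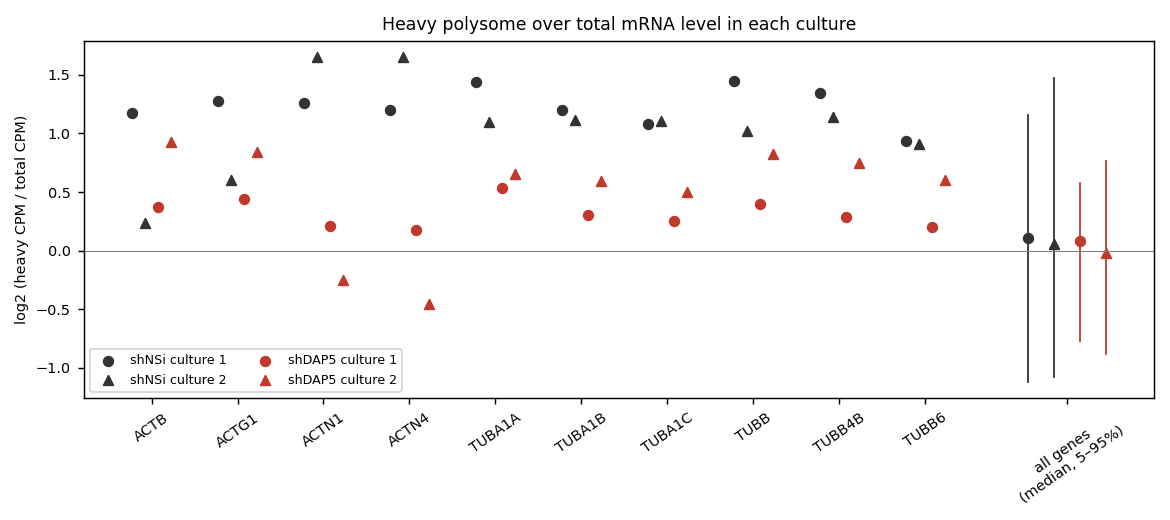
Log2 ratio of heavy polysome over total mRNA level (TMM-scaled CPM) in each culture, with shNSi in black, shDAP5 in red, circles for culture 1 and triangles for culture 2; at the right, the median of all genes in each culture with a line from the 5th to the 95th percentile. For ACTN1 and ACTN4 the shNSi values are 1.20 or higher and the shDAP5 values 0.21 or lower, the tubulins separate by less, and the actins overlap.

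Coding length varied with these changes. Over 12467 genes with a coding length, the log2 change in heavy efficiency had a Spearman's rho of -0.71 with coding length, across genes that share the same libraries and are not independent. Actins (1125 coding bases) lay in decile 4 of coding length, whose median change was 0.18, and the tubulins (1332 to 1353 bases) in decile 5, with a median of -4e-04. The alpha-actinins (2676 and 2733 bases) lay in decile 9, whose median was -0.69 and whose values ran from -1.55 at the 5th percentile to 0.42 at the 95th. All 10 members were below the median of their decile and above its 5th percentile. With offsets for coding length fitted in each library, ACTN1 changed by -0.76 (adjusted p = 0.0798) and ACTN4 by -0.84 (adjusted p = 0.0558) in heavy efficiency, and by -1.16 (adjusted p = 0.0212) and -1.10 (adjusted p = 0.0247) in heavy polysomes. The part of coding length in these results was tested in no other way.

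**Figure D4:**
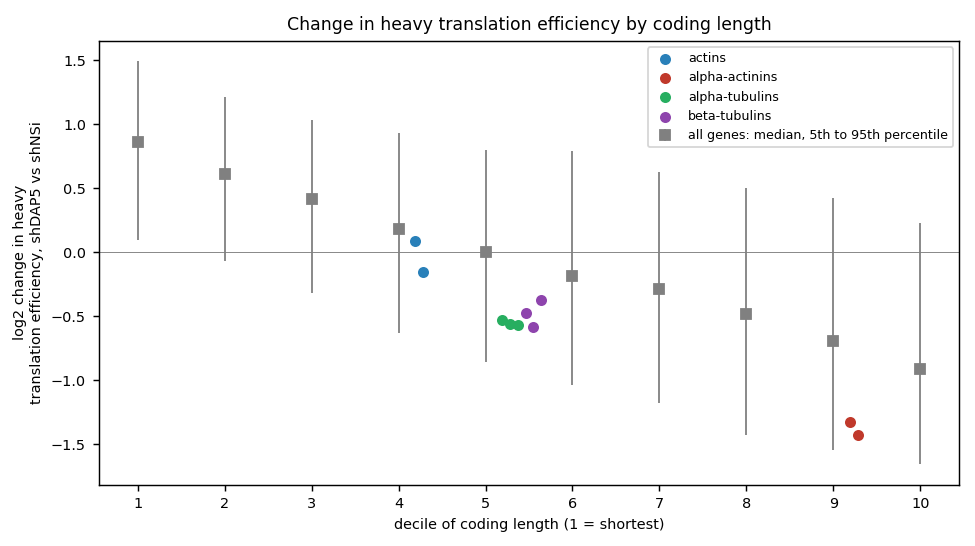
Log2 change in heavy translation efficiency in shDAP5 against shNSi by decile of coding length, with grey squares for the median and lines for the 5th to 95th percentile of all genes and coloured points for the 10 members, offset sideways for clarity. The medians go from 0.86 in the shortest decile to -0.92 in the longest, and the alpha-actinins lie at -1.33 and -1.42 in decile 9.

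In light polysomes, the poorly translated mRNA, no member was called. No gene of the whole table was called either (0% higher and 0% lower), with 527 genes higher and 803 lower at an unadjusted p under 0.05, and DESeq2 called 105 genes and no member. The log2 changes ran from -0.73 (SE 0.45) for ACTG1 to 0.50 (SE 0.37) for TUBA1A, with a median of -0.61 over the members and -0.01 over all genes. ACTB was at 1974 and 5359 CPM in shNSi and at 2232 and 2514 CPM in shDAP5 (log2 change -0.64, SE 0.46). Its shDAP5 values sat just above shNSi culture 1 and far below shNSi culture 2. TUBB4B showed the same layout, with 299.9 and 791.9 CPM in shNSi and 370.1 and 363.9 CPM in shDAP5 (-0.58, SE 0.44). The 3 alpha-tubulins summed were at 1581 and 2439 CPM in shNSi and 1591 and 1324 CPM in shDAP5. ACTN1, TUBA1C and TUBB6 had both shDAP5 cultures below both shNSi cultures, 3 of 10 members, as did 19.9% of 16235 genes. TUBB6 was the one with the lowest p, with 258.7 and 250.8 CPM in shNSi and 161.2 and 148.9 CPM in shDAP5, a pair of groups that did not overlap (log2 change -0.72, SE 0.29, unadjusted p = 0.0331, adjusted p = 0.559).
The light result depended on which shNSi culture was used. Without shNSi culture 1, 7 members were called lower (ACTB, ACTG1, TUBA1B, TUBA1C, TUBB, TUBB4B and TUBB6), with ACTB at -1.20 (adjusted p = 0.000139), in a fit that called 28.9% of all genes (4678, of which 2637 lower). Without shNSi culture 2, TUBB6 alone was called (-0.74, adjusted p = 0.0434), ACTB was at 0.26, and the median over the members was 0.07, in a fit that called 4.82% of all genes (781, of which 494 lower). Against the shNSi moderate pool, whose code the shDAP5 light libraries carry, 5 members were called lower, from -1.60 for TUBB6 to -2.18 for ACTG1, where 25.5% of all genes were called (3940, of which 2001 lower).

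For light translation efficiency no member was called, and no gene of the table (0% in each direction, with 353 genes higher and 480 lower at an unadjusted p under 0.05, and 0 called by DESeq2). The log2 changes ran from -0.48 (SE 0.44) for ACTB to 0.10 (SE 0.32) for ACTN1, with ACTN4 at 0.04 (SE 0.35) and a median of -0.31 over the members. The alpha-actinins were the 2 members with a value above 0. Without shNSi culture 1, 5 members were called lower (ACTB, ACTG1, TUBA1A, TUBB and TUBB4B), in a fit that called 12.3% of all genes (2030, of which 1236 lower). With the moderate pool as control 6 were (those 5 and TUBB6), where 27.5% of all genes were called (4367, of which 2181 lower).

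The difference between the lines in heavy over light polysomes was tested directly as well. It rests on the shDAP5 light libraries that carry the moderate code and was not repeated against the moderate pool, so it may compare unlike fractions. No member passed, where 1.54% of genes were called higher and 5.21% lower. ACTN1 was at -1.48 (SE 0.53, adjusted p = 0.0851) and ACTN4 at -1.52 (SE 0.53, adjusted p = 0.0805), and ACTB had the highest value at 0.52 (SE 0.76, adjusted p = 0.721). The log2 ratio of heavy over light was 3.31 and 3.14 for ACTN1 in shNSi and 1.66 and 1.62 in shDAP5, and 3.42 and 3.08 for ACTN4 in shNSi and 1.62 and 1.64 in shDAP5. Both genes passed with DESeq2 (adjusted p = 0.0032 and 0.00278). With library size scaling the median of all genes rose from 0.05 to 0.29, the share of calls that were higher from 22.9% to 60.8%, and no member passed.

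Within families, the share of counts that each gene took varied less for the alpha-actinins than for TUBB6. ACTN1 made up 45.1% to 52.1% of alpha-actinin counts over the 14 libraries, and ACTB 47.2% to 63.6% of actin counts, lowest in heavy polysomes of shNSi culture 2 and highest in light polysomes of shDAP5 culture 2. TUBA1B took 58.6% to 66.8% of alpha-tubulin counts. TUBB6 took 5.13% to 16.9% of beta-tubulin counts, and its share was highest in the light and moderate libraries of shNSi culture 1 (16.9% and 15.2%). Over the 14 libraries, Pearson's r of log2 CPM between pairs of members ran from 0.641 (ACTB and ACTN4) to 0.994 (ACTN1 and ACTN4), with a median of 0.862 over 45 pairs. The libraries share cultures and fractions and are not independent points. Among 4651 genes with a mean of at least 50 CPM, the 5 with the pattern most like ACTB were PSMC4 (r = 0.995), LDHA (0.993), NSFL1C (0.99), PNMA1 (0.988) and AAMP (0.987). Those most like TUBB were CDC20 (0.997), RBBP7 (0.995), RAE1 (0.994), AHCY (0.993) and RUVBL1 (0.993).

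Other genes of these pathways were described from lists, read against the 4.85% of genes called higher and 8.23% called lower in heavy efficiency. Over all genes that change went with coding length (Spearman's rho -0.71), and the part of coding length in the list calls was not tested. By library size, without the culture terms and with either other control fraction, no gene of the whole table was called in heavy efficiency. No list call was held in those settings. None of the 12 genes of tubulin autoregulation and the CCR4-NOT complex was called in total mRNA, and 1 was lower in heavy efficiency, CNOT1, the scaffold of the complex (-1.18, SE 0.36, adjusted p = 0.0245). TTC5 was at 0.45 (SE 0.34, adjusted p = 0.397) and SCAPER at -0.99 (SE 0.36, adjusted p = 0.057). In heavy polysome levels 3 of the 12 were lower and 1 higher, from CNOT1 (-1.22) to CNOT9 (0.90), and SCAPER was among those lower (-0.91, adjusted p = 0.0292). In heavy over light between the shRNAs 2 of the 12 were lower and 0 higher, CNOT1 (-1.58, adjusted p = 0.0461) and SCAPER (-1.48, adjusted p = 0.043). There 1.54% of all genes were called higher and 5.21% lower. Of the actin-sensing regulators, SRF was at 0.41 (SE 0.33) and its partners MKL1 and MKL2, older symbols of MRTFA and MRTFB, were at -0.77 (SE 0.34) and -1.27 (SE 0.56), and none was called.
Of 14 subunits of the chaperonin and prefoldin, which fold actin and tubulin, 3 were higher and 1 lower, with PFDN5 highest (1.25, SE 0.36) and CCT8 lowest (-1.04, SE 0.36). Of 6 tubulin folding cofactors, 3 were higher and 1 lower, with ARL2 highest (1.01, SE 0.35) and TBCD lowest (-1.17, SE 0.33). Of 19 genes for actin monomer binding and the Arp2/3 complex, 2 were higher and 1 lower. Profilin PFN1, which feeds monomers to growing filaments, was highest (1.52, SE 0.41), and CAP1, which recycles monomers, was lowest (-1.05, SE 0.36).
The actin crosslinking and adhesion genes were called in 1 direction, 7 lower and 0 higher of 13, from FLNA, a filamin that crosslinks filaments (-1.60, SE 0.41), to GSN, the severing protein gelsolin (-1.08, SE 0.35). Of 13 genes of microtubule dynamics, 5 were lower and 0 higher, from MAP1B (-1.88, SE 0.40) to CLASP1 (-1.02, SE 0.35). Of the 9 other tubulins tested, of 16 listed, and the 2 other actin or alpha-actinin genes tested, of 6 listed, none was called in heavy efficiency. In heavy polysome levels, where 14.2% of genes were called higher and 16.7% lower, 2 of the 9 other tubulins were lower, TUBB2A (-0.91) and TUBA4A (-0.91). There 8 of the 13 crosslinking and adhesion genes were lower and 0 higher, and 2 of the 13 were also lower in total mRNA, FLNC (-1.43, adjusted p = 0.00486) and LCP1 (-1.27, adjusted p = 0.00486), where 0.267% of genes were. In heavy polysomes the chaperonin and prefoldin subunits were called 6 higher, all of prefoldin, and 6 lower, all of the chaperonin, from CCT3 (-1.16) to PFDN5 (1.43). The tubulin cofactors were called 3 higher and 1 lower of 6, actin monomer binding and Arp2/3 8 higher and 4 lower of 19, from WDR1 (-1.35) to PFN1 (1.55), and microtubule dynamics 1 higher and 6 lower of 13, from CKAP5 (-1.98) to MAPRE3 (1.37).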

How the data were processed

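Per the labels, RNA sequencing was done on 14 libraries of MDA-MB-231 lines. The authors deposited 1 table of whole-number read counts per gene symbol without normalization, and its name points to featureCounts. The submitters' processing notes name STAR 2.6.0a, limma and hg19. Counting options, strand and treatment of reads that match several genes are not given in the sources used here. Per the paper, limma was applied to quantile normalized values, with total and polysome libraries normalized apart, and this was run here as an alternative.

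Counts were analysed in R 4.3.3 with edgeR 4.0.16 (filterByExpr, TMM, robust quasi-likelihood test), with 1 fit per comparison and Benjamini-Hochberg adjustment over all genes tested at a threshold of 0.05. Levels are CPM with TMM factors from all 14 libraries (0.703 to 1.16), and fold changes come from each comparison's own fit. Pearson's r used log2(CPM + 1), and ratios across all genes a pseudocount of 0.5. DESeq2 1.42.0, limma 3.58.1 on log2(CPM + 1), library size scaling, no filter, a minimum of 10 counts throughout, the replicate block, all libraries in 1 fit, other control fractions, coding length offsets and left-out cultures were the alternatives, and the crossed pairing was added after seeing the data. The fits for total mRNA, heavy translation efficiency and shNSi heavy against light were run on simulated counts with known changes. Those counts had a fixed dispersion and no difference between cultures, so they do not speak to the spread between cultures here.

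Genes named are the 10 members, EIF4G2, the lowest and highest called genes of each list in heavy efficiency, and the 5 genes most like ACTB and TUBB. TTC5, SCAPER, CCT3, CNOT9, WDR1, CKAP5, MAPRE3, FLNC, LCP1, TUBB2A, TUBA4A, the SRF genes and the cell line markers were named after their values were seen. The members and lists were chosen with earlier results of these data known. Sequences, lengths and positions are from GENCODE v29 (GRCh38), in which 37531 symbols of the table had a name. Of the table's symbols, 27761 had no read. Replicate numbers were not taken to pair cultures across the lines. Depth was at least 25899838 counts per library, with 2 cultures per group.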

Additional observations from a re-analysis of the deposited data

Results flagged for a closer look

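The fraction effect of 2 members differed between shNSi and shDAP5 by the interaction test of edgeR, where 4.85% of all genes tested were called higher and 8.23% lower. The change in heavy over total was -1.33 on the log2 scale for ACTN1 (SE 0.38, adjusted p = 0.0202) and -1.42 for ACTN4 (SE 0.39, adjusted p = 0.0154), with both shDAP5 cultures below both shNSi cultures for each gene. The same separation held for 32.6% of 16235 genes. With the shNSi moderate pool in place of heavy the changes turned to 1.32 and 1.37. With coding length offsets neither gene was called. Over the alternatives other than the crossed pairing, the adjusted p ran from 0.00239 to 1 for ACTN1 and from 0.000818 to 1 for ACTN4. The groups held 2 samples each, too few for a sample to be examined as standing apart from its group.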

How the results depend on the processing

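The alternatives gave 809 recomputed values of the members' log2 changes (for heavy over light between the shRNAs, of ACTB, ACTN1 and ACTN4 alone) and 90 recomputed counts of members called. Of the recomputed log2 changes, 685 kept their direction and side of the threshold, 32 passed it anew, 27 no longer passed and 65 turned direction. For each of these the cause was not tested.

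In total mRNA 0 members were called, but 1 (TUBA1A) with no filter and 1 with the replicate block. TUBB4B turned to -0.0091 with no filter, -0.019 with limma and -0.0058 with all libraries in 1 fit, and TUBB to 0.0022 with limma. Leaving out 1 culture gave -0.058 to 0.12 for ACTB, -0.21 to 0.24 for TUBB4B and 0.20 to 1.16 for TUBA1A.

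In heavy polysomes 2 members were called, 3 with DESeq2 (TUBA1C added), limma (ACTB added, higher) and all libraries in 1 fit (TUBB6 added), 0 with the shNSi moderate pool in place of heavy, 0 with both summed, and 0 to 3 with 1 culture left out. With limma ACTG1 was at 0.50 and TUBB at 0.23. With all libraries in 1 fit ACTB was at -0.063 and TUBA1A at -0.082, and with coding length offsets ACTB was at -0.0097. With the moderate pool ACTN1 was at 0.81, ACTN4 at 1.03, TUBA1B at 0.27, TUBA1C at 0.070, TUBB at 0.21 and TUBB4B at 0.40. With 1 culture left out ACTB ran from -0.25 to 0.47 and TUBA1A from -0.42 to 0.72.

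In heavy translation efficiency 2 members were called, and 0 with library size, limma, the replicate block, no culture term, the moderate pool, heavy and moderate summed, or coding length offsets, with 0 to 2 when 1 culture was left out. ACTG1 was at 0.059 by library size, 0.50 by limma, 0.23 with the moderate pool and 0.12 with the sum. Limma gave TUBA1B 0.039 and TUBB 0.23, and coding length offsets gave ACTB -0.043. With the moderate pool ACTN1 was at 1.32, ACTN4 at 1.37, TUBA1A at 0.66, TUBA1B at 0.56, TUBA1C at 0.55, TUBB at 0.63, TUBB4B at 0.63 and TUBB6 at 0.038. With the sum TUBA1A was at 0.032, TUBA1B at 0.0082, TUBA1C at 0.021, TUBB at 0.048 and TUBB4B at 0.012. With 1 culture left out ACTB ran from -0.38 to 0.52 and ACTG1 from -0.49 to 0.15.

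In light polysomes 0 members were called, 5 against the moderate pool, where TUBA1A was at -0.99, and 0 to 7 with 1 culture left out. Those fits gave -1.20 to 0.26 for ACTB, -1.27 to 0.12 for ACTG1, -0.18 to 0.94 for TUBA1A, -0.68 to 0.019 for TUBA1B, -1.17 to 0.13 for TUBB and -1.13 to 0.29 for TUBB4B. In light translation efficiency 0 members were called, 6 against the moderate pool, where ACTN1 was at -0.29 and ACTN4 at -0.23, and 0 to 5 with 1 culture left out. Those fits gave -1.11 to 0.12 for ACTB, -0.81 to 0.20 for ACTG1, -0.17 to 0.35 for ACTN1, -0.34 to 0.40 for ACTN4, -0.81 to 0.25 for TUBA1A, -0.47 to 0.044 for TUBA1B, -0.84 to 0.17 for TUBB and -0.90 to 0.024 for TUBB4B. In heavy over light between the shRNAs 0 members were called, 2 with DESeq2, and ACTB ran from -0.58 to 1.64 with 1 culture left out.

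The replicate number as a block ended the calls of ACTN1 (adjusted p = 0.101) and ACTN4 (0.0822) in heavy translation efficiency, and moved the genes called there from 2012 to 688, in total mRNA from 53 to 365 and in light polysomes from 0 to 130. Same-numbered cultures of the 2 lines had deviations correlated at -0.13 in total mRNA, 0.06 in heavy and 0.05 in light polysomes, -0.31 in heavy and 0.02 in light translation efficiency and -0.21 in heavy over light. No positive value was over 0.1, while the negative ones of -0.13, -0.31 and -0.21 were larger than that in size. The labels do not say what a number marks, so the numbers were not taken as pairs. Crossing the numbers, tried after seeing the data, gave 71 genes in total mRNA, 4133 in heavy translation efficiency and 2238 in heavy over light between the shRNAs (1072 without it), with 0, 2 and 0 members.

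Counts over all genes depended on the setting. Total mRNA gave 274 with DESeq2, 577 with no filter, 18 by library size, 5 with limma, 3 with all libraries in 1 fit and 0 to 386 with 1 culture left out. Heavy polysomes gave 4414, but 50 against the moderate pool, 421 against the sum, 1407 with offsets and 2 to 3559 with 1 culture left out. Heavy translation efficiency gave 408 with limma, 462 with offsets, 0 by library size, with no culture term, the moderate pool and the sum, and 4 to 4515 with 1 culture left out. Light polysomes gave 244 with no filter, and light translation efficiency 4367 against the moderate pool. Heavy over light between the shRNAs gave 1921 with DESeq2, 1637 by library size, 106 with offsets and 0 with limma or no culture term. That offset fit was set aside, as coding lengths covered 79.2% of genes, under the minimum share taken here. The share was 81.1% in heavy translation efficiency, close to it. Within a line, leaving out a culture left 1 library per fraction and no test, so ratios per culture are given instead. The lowest count of any member in a library was 672, for TUBA1A in light polysomes of shNSi culture 1.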
